A study of Mus musculus with 56 samples.

Results

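Ponatinib at 10 mg/kg was compared directly with nilotinib at 30 mg/kg in the liver of 16 mice, 8 per drug, out of 56 mice sequenced in the study. The members were taken from the dose and compound given in the sample labels, and no measured value was used to choose them. Every animal was a female APOE*3Leiden.CETP mouse, a strain that carries human transgenes for a dysfunctional apolipoprotein E variant and for cholesteryl ester transfer protein and therefore carries lipoproteins in a more human-like way than other mice. The mice were 9 to 14 weeks old and ate a Western-type diet with 15% cacao butter and 0.15% cholesterol, for 3 weeks before the drugs and for the 16 weeks of treatment. Each drug was given by 1 oral gavage per day in carboxymethyl cellulose, together with another gavage of vehicle alone. Control mice had the same genotype, age and diet and were gavaged with vehicle, and the low-dose groups received ponatinib at 3 mg/kg or nilotinib at 10 mg/kg (8 mice each). The fit also held 8 mice given imatinib at 150 mg/kg at both daily gavages. An alternative fit of all 56 mice added 8 given L-NAME in drinking water. The doses of the drugs differ, and with them the exposure, so the comparison is one of these dose levels and not of equal amounts. Poly(A) RNA of whole liver was sequenced, which measures all liver cell types together.

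Nilotinib and ponatinib are inhibitors of the ABL kinase that drives chronic myeloid leukemia. Nilotinib also binds KIT, the PDGF receptors and the DDR kinases, and ponatinib blocks a wider set that includes the VEGF, FGF and TIE receptors. In the liver, hepatocytes make cholesterol, lipoproteins and clotting factors, sinusoidal endothelial cells line the capillaries, Kupffer cells are the resident macrophages, and stellate cells deposit matrix. Cholesterol synthesis is controlled by SREBP2, a transcription factor that is released from the endoplasmic reticulum when sterols are low and that raises the enzymes of the pathway.

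The libraries of the 16 mice held 7027550 to 11997763 reads assigned to a gene. The share of uniquely aligned reads outside annotated genes was 8.89% to 15.2% with ponatinib and 9.41% to 12.7% with nilotinib (exact two-sided permutation test, p = 0.552, adjusted p = 0.552 over 4 measures of the libraries). The 10 most abundant genes held 20.5% ± 1.44 of the reads with ponatinib and 18.6% ± 1.24 with nilotinib (SD, n = 8; exact two-sided permutation test, p = 0.0152, adjusted p = 0.0609). Ponatinib mouse 2 and ponatinib mouse 4 stood apart, the first by its acute-phase genes and the second by the lowest correlation with its own group (median r = 0.866 over log2 CPM, against at least 0.886 in the other 15 mice). Albumin (Alb) was at 43898 to 113263 CPM with ponatinib and 51262 to 92855 CPM with nilotinib, as befits liver. CPM are counts scaled to a common library size of 1e6 reads after TMM normalization. No marker of the 6 cell type lists that passed the filter was at 0 in all 8 mice of a group.

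In the direct comparison 218 of 14090 tested genes (1.55%) differed by edgeR's quasi-likelihood test at a Benjamini-Hochberg adjusted p below 0.05, which is what "called" means here. Of these, 105 (0.745% of the genes tested) were higher with ponatinib and 113 (0.802%) were lower. Of the 33 gene lists examined, cholesterol synthesis held the most higher genes, and MHC class II, matrix, endothelial, macrophage and endoplasmic reticulum genes were among the lower ones. At the study's unadjusted p below 0.01, 383 genes (2.72%) were higher and 389 (2.76%) lower, where the test alone would pass 141. The called differences were mostly moderate, with a median absolute log2 fold change of 0.88, and 92 of the 218 were at least 1. In 27 called genes the 8 ponatinib mice lay wholly above or wholly below the 8 nilotinib mice, as did 38 of all tested genes (0.27%). Without nilotinib mouse 7 the count of called genes fell to 98, without nilotinib mouse 8 to 119 and without ponatinib mouse 6 to 143. In the fits that each left out 1 of the 16 mice, 78 of the 218 genes were called every time. Among the genes named below, calls kept in fewer than 10 of the 16 fits were those of Gm8394 and Podxl (4 of 16), H2-M2 and Pdia4 (5 of 16), Adgrl4, Hspg2 and Maf (6 of 16), Abcc4, Asl, Hspa5 and Psmd8 (7 of 16), Fads1, Mbl2, Mrc1 and Mt1 (8 of 16) and Pklr (9 of 16).

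**Figure D1:**
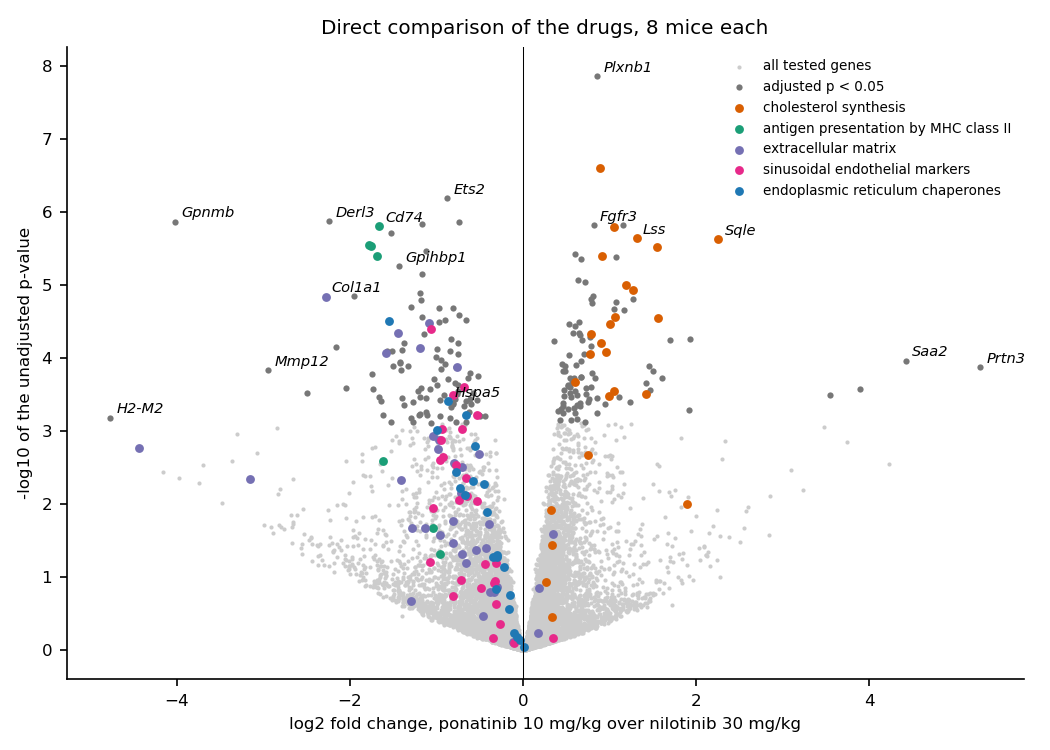
Log2 fold change of ponatinib 10 mg/kg over nilotinib 30 mg/kg (x axis) against the -log10 of the unadjusted p-value (y axis) for the 14090 tested genes, with 5 gene lists in colour and the 218 called genes in dark grey. All 25 tested members of the cholesterol list lie to the right of 0, and all 7 MHC class II members lie to the left.

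Cholesterol synthesis was higher with ponatinib at most of its genes. Of 25 tested members of the list of cholesterol synthesis and sterol response genes, 19 were higher with ponatinib and none was lower. The median log2 fold change was 1.00, against 0.002 over all tested genes, and all 25 values were above 0. The count stayed between 15 and 20 when each of the 16 mice was left out in turn.

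Squalene epoxidase (Sqle), which adds oxygen to squalene and is a rate-limiting step of sterol synthesis, had the largest change of the list. Its lowest, median and highest levels were 38.2, 64.3 and 109 CPM with ponatinib and 5.12, 12.4 and 26.0 CPM with nilotinib. Every ponatinib mouse lay above every nilotinib mouse, with means of 70.3 ± 25.5 and 14.7 ± 7.29 CPM (SD, n = 8 each; log2 fold change 2.26, SE 0.43, edgeR adjusted p = 0.00234). Control mice were at 27.6 ± 15.2 CPM (SD, n = 8), between the drugs.

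Lanosterol synthase (Lss), which closes the sterol ring, did not overlap between the groups, at 51.3 to 146 CPM against 28.0 to 50.3 CPM (log2 fold change 1.31, SE 0.25, edgeR adjusted p = 0.00234). Mevalonate decarboxylase (Mvd) had a log2 fold change of 1.55 (edgeR adjusted p = 0.00848) and the thiolase Acat2, the first step of the pathway, one of 1.05 (edgeR adjusted p = 0.00204), each with 7 ponatinib mice above all nilotinib mice.

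For Sqle the log2 difference from control was 1.35 with ponatinib (edgeR adjusted p = 0.0215) and -0.91 with nilotinib (edgeR adjusted p = 0.216). The drug contrasts with control share the 8 control mice. Over the whole cholesterol list the median log2 difference from control was 0.75 with ponatinib and -0.30 with nilotinib, where over all genes it was -0.01 and 0.03.

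Insig1, which holds SREBP in the endoplasmic reticulum, was higher by 0.90 on the log2 scale (edgeR adjusted p = 0.0122). Among the 6 members that were not called were Hmgcs1, Idi1, Ebp, Srebf2 and Mvk, with log2 fold changes of 0.75, 1.89, 0.32, 0.34 and 0.34. Insig1 and these genes were picked out after their values were seen. Srebf2, the gene of SREBP2 itself, was thus among those that did not pass the test.

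**Figure D2:**
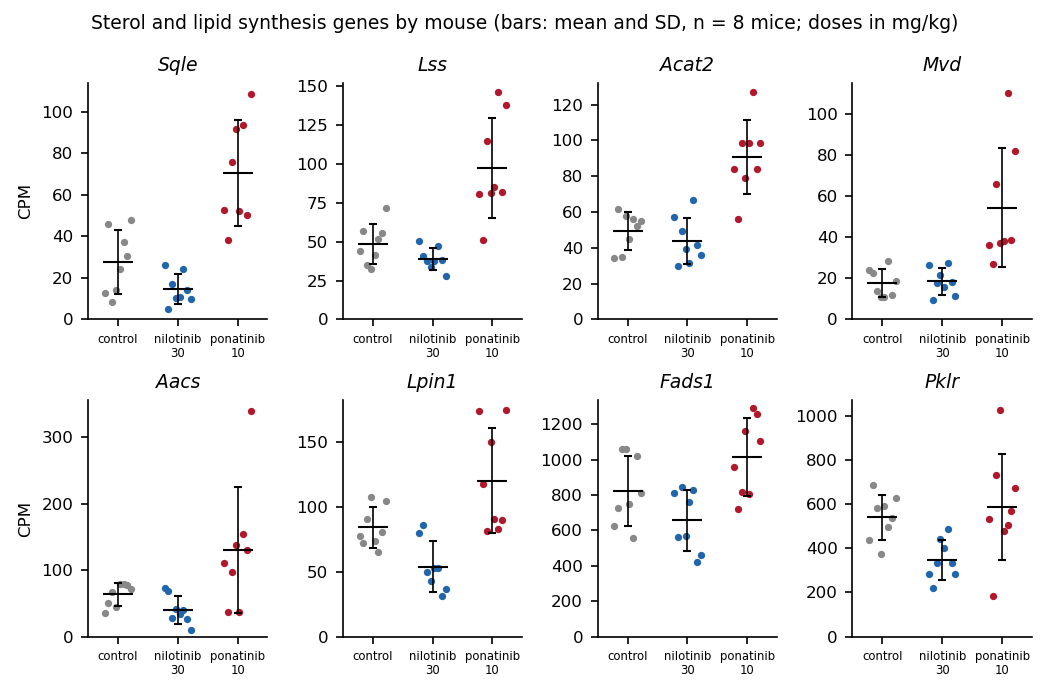
CPM of 8 sterol and lipid genes in each control, nilotinib 30 mg/kg and ponatinib 10 mg/kg mouse (points), with the mean and SD of 8 mice. Sqle and Lss do not overlap between the drugs, and Pklr with ponatinib lies near control while nilotinib lies below.

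SREBP works with the factor NF-Y, which binds the letters CCAAT. RefSeq holds the start region of 17 of the 25 tested cholesterol genes (build GRCm38.p6), and 16 of these have CCAAT on either strand in the 250 bases before the start (94.1%, against 37.5% of all 27025 genes in that table). The 27025 genes include those not tested here, and the share among tested genes alone was not counted. Of the 19 called members 12 are in the table, and 11 of these have the match. The match is not particular to this list. It is also in 17 of the 19 tested endoplasmic reticulum chaperones in the table (89.5%), whose called members were lower with ponatinib. The bases around the match nearest to the start are shown for the 3 called genes of smallest p that have one, Lss, Nsdhl (a C4 demethylation enzyme) and Cyp51 (lanosterol demethylase), 5′ to 3′ on the strand of the gene. They were chosen after their values were seen. Capitals mark CCAAT, or ATTGG where it lies on the opposite strand.
Lss, chr10:76531531-76531559, plus strand: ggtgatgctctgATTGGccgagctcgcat
Nsdhl, chrX:72918489-72918517, plus strand: aagactagcctcATTGGgcaaaatcatgc
Cyp51, chr5:4104710-4104738, minus strand: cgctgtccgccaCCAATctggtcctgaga
The Cyp51 bases lie inside a longer first exon of that gene in the GENCODE vM21 annotation. A match is a description of the letters and not a measured binding site.

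Fatty acid and triglyceride synthesis differed in the same direction at fewer genes. Of 22 tested members 3 were higher and 1 was lower with ponatinib, with a median log2 fold change of 0.66, and 10 were higher at an unadjusted p below 0.01. Lipin 1 (Lpin1), which makes diacylglycerol, was at 81.6, 104 and 175 CPM (lowest, median, highest) with ponatinib and 31.2, 51.5 and 86.2 CPM with nilotinib (log2 fold change 1.15, SE 0.21, edgeR adjusted p = 0.00204). Liver pyruvate kinase (Pklr) rose by 0.76 (edgeR adjusted p = 0.0306) and the delta-5 desaturase Fads1 by 0.63 (edgeR adjusted p = 0.0342), while the desaturase Scd2 was lower by -0.90 (edgeR adjusted p = 0.0179). The ketone-using enzyme acetoacetyl-CoA synthetase (Aacs), which feeds lipid synthesis, was at 37.3 to 339 CPM with ponatinib and 9.80 to 73.4 CPM with nilotinib (log2 fold change 1.69, edgeR adjusted p = 0.0117). Without ponatinib mouse 2 the number of higher list members was 8, without nilotinib mouse 6 it was 6, and without nilotinib mice 2, 7 and 8 or ponatinib mice 4 and 8 it was 1.

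Genes of antigen presentation by MHC class II were lower with ponatinib. All 7 tested members had a log2 fold change below 0, with a median of -1.66, and 4 of them were called in every fit that left out a mouse. H2-Ab1, a chain of the I-A molecule that shows peptides to T cells, was at 20.5, 38.4 and 51.6 CPM (lowest, median, highest) with ponatinib and 51.7, 100.3 and 280.4 CPM with nilotinib. The groups did not overlap (log2 fold change -1.69, SE 0.33, edgeR adjusted p = 0.00264). Its partner chain H2-Aa had a log2 fold change of -1.76 (edgeR adjusted p = 0.00246), and H2-Eb1, a chain of the related I-E molecule, one of -1.78 (edgeR adjusted p = 0.00246).

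The invariant chain (Cd74), which binds class II molecules, fell from 310 ± 165 CPM with nilotinib to 98.0 ± 36.3 CPM with ponatinib (SD, n = 8; log2 fold change -1.66, SE 0.31, edgeR adjusted p = 0.00204). The 3 highest nilotinib values were 650 CPM in mouse 7, 404 CPM in mouse 8 and 348 CPM in mouse 4. Control mice were at 242 ± 131 CPM (SD, n = 8), with a wide spread. The genes of the class II family are similar in sequence, and reads that aligned to more than one place were not counted.

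Macrophage genes moved unevenly. Of 18 tested Kupffer cell and macrophage markers, 3 were lower with ponatinib and none was higher, with a median log2 fold change of -0.35. At an unadjusted p below 0.01, 5 were lower and 1 was higher, and 14 of the 18 had a log2 fold change below 0. The change of largest absolute size in the list was an increase with ponatinib. The other fits of the same contrast called 1 to 6 markers lower and 0 to 1 higher, the 1 by DESeq2. Cd68, a lysosomal protein of macrophages, was at 11.5, 16.7 and 54.1 CPM (lowest, median, highest) with ponatinib and 28.0, 48.6 and 79.6 CPM with nilotinib (log2 fold change -1.14, SE 0.26, edgeR adjusted p = 0.0105). The protease Ctss had a log2 fold change of -1.08 (edgeR adjusted p = 0.0272) and the mannose receptor Mrc1 one of -0.66 (edgeR adjusted p = 0.0319). The defining Kupffer cell receptor Clec4f stood at 278 ± 141 and 284 ± 45.8 CPM (SD, n = 8; log2 fold change -0.03, edgeR adjusted p = 0.977), and Adgre1 at 29.5 ± 21.6 and 38.5 ± 13.3 CPM (SD, n = 8; edgeR adjusted p = 0.706). Without nilotinib mouse 7 or 8, or ponatinib mouse 3, 6 or 7, 1 marker was called, and without ponatinib mouse 5, 5 were.

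Outside the lists, Gpnmb and Mmp12, which lipid-laden macrophages express, were lower with ponatinib. Gpnmb, a lysosomal membrane glycoprotein of such cells, was at 0.582, 3.88 and 12.9 CPM (lowest, median, highest) with ponatinib and 6.09, 62.5 and 205 CPM with nilotinib. The log2 fold change was -4.02 (SE 0.74, edgeR adjusted p = 0.00204), and 6 ponatinib mice were below the lowest nilotinib mouse. Nilotinib mouse 6, at 6.09 CPM, lay among the ponatinib mice. Control mice were at 108 ± 90.0 CPM (SD, n = 8). Mmp12, the macrophage elastase, was at 0.146 to 15.2 CPM with ponatinib and 4.20 to 96.3 CPM with nilotinib (log2 fold change -2.94, SE 0.72, edgeR adjusted p = 0.0197). The lymphocyte receptor Slamf7 was low in both groups, at 0 to 1.33 and 1.70 to 8.17 CPM (edgeR adjusted p = 0.0291). H2-M2, a class I gene, was at 0 to 0.398 CPM with ponatinib and 0 to 12.7 CPM with nilotinib (edgeR adjusted p = 0.0444), too low for a fold to be given.

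Recruited leukocyte markers gave no call among 22 members by edgeR, where 1 had an unadjusted p below 0.01 and the other fits of the same contrast called 0 to 1 in either direction. Their summed level was 36.4 to 158 CPM with ponatinib and 57.1 to 115 CPM with nilotinib. The chemokine receptor Ccr2 had a log2 fold change of -1.44 (edgeR adjusted p = 0.0633). Cd3e, which marks T cells, was at most 3.10 CPM in any of the 16 mice. The summed Kupffer cell and macrophage markers were at 749 to 3391 CPM with ponatinib and 1519 to 3065 CPM with nilotinib. In whole liver, fewer cells of a type and less RNA per cell cannot be told apart.

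Sinusoidal endothelial markers had values below 0 in all but 1 member, and how many passed the test depended on the fit. Of 28 tested, 4 were lower with ponatinib, 14 were lower at an unadjusted p below 0.01, and 27 had a log2 fold change below 0 with a median of -0.67. The summed level was 266 to 899 CPM with ponatinib and 881 to 1118 CPM with nilotinib, so that only the highest ponatinib values reached the nilotinib range. Clec4g, a lectin of these cells, was at 4.35, 32.7 and 55.3 CPM (lowest, median, highest) with ponatinib and 45.4, 69.9 and 97.4 CPM with nilotinib (log2 fold change -1.07, SE 0.24, edgeR adjusted p = 0.00995). The scavenger receptor Stab2 fell from 88.5 ± 16.0 to 55.2 ± 14.7 CPM (SD, n = 8; log2 fold change -0.68, edgeR adjusted p = 0.0268), while its relative Stab1 was at 90.1 ± 15.1 and 62.3 ± 20.1 CPM (SD, n = 8; edgeR adjusted p = 0.172). Egfl7, which guides vessel growth, and the transcription factor Maf had log2 fold changes of -0.80 and -0.53 (edgeR adjusted p = 0.0296 and 0.0419). Leaving out 1 mouse moved the count between 1, without nilotinib mouse 8, and 5, and it was 2 without nilotinib mouse 7 or ponatinib mouse 2, 6 or 7. The other fits called 1 to 13, with 9 by DESeq2, 13 by limma and 1 with only the 16 mice.

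Outside the endothelial list, Cldn5, Gpihbp1 and Pcdh12, grouped here after their values were seen, did not overlap between the groups, while Adgrl4, Podxl and Hspg2, also called, did overlap. Claudin 5 (Cldn5), a tight junction protein of endothelium, was at 1.49, 3.30 and 7.56 CPM (lowest, median, highest) with ponatinib and 10.7, 14.4 and 19.6 CPM with nilotinib (log2 fold change -1.95, SE 0.41, edgeR adjusted p = 0.00611). Gpihbp1, the endothelial protein that carries lipoprotein lipase to the vessel wall, was at 3.24, 10.7 and 15.4 CPM with ponatinib and 19.4, 25.2 and 43.2 CPM with nilotinib (log2 fold change -1.44, SE 0.28, edgeR adjusted p = 0.00322). Its cargo Lpl overlapped between the groups and had a log2 fold change of -1.29 (edgeR adjusted p = 0.0071). The protocadherin Pcdh12 was at 0 to 3.12 CPM and 4.74 to 7.12 CPM (log2 fold change -2.05, edgeR adjusted p = 0.0269). Control mice lay between the drugs for Gpihbp1 and Cldn5, at 16.7 ± 6.25 and 7.75 ± 2.18 CPM (SD, n = 8), and the contrasts of either drug with control did not pass for these genes (edgeR adjusted p between 0.0704 and 0.193). The lower summed level of endothelial markers moved with these genes, and its part in these values was not tested.

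Matrix genes were lower with ponatinib in 6 of 35 tested members, with a median log2 fold change of -0.80, and 16 were lower at an unadjusted p below 0.01. Col1a1, the main chain of type I collagen, was at 6.48, 11.5 and 25.9 CPM (lowest, median, highest) with ponatinib and 20.7, 53.4 and 196 CPM with nilotinib, and its partner Col1a2 was at 11.6 to 29.2 and 22.3 to 125 CPM. Their log2 fold changes were -2.28 (edgeR adjusted p = 0.00611) and -1.45 (edgeR adjusted p = 0.0105). The matrix protein Sparc and the basement membrane collagen Col4a2 had log2 fold changes of -1.08 and -1.19 (edgeR adjusted p = 0.00878 and 0.0134). Nilotinib mouse 7 held the highest Col1a1 value, and without that mouse 3 members were called. Stellate cell markers, 16 tested, gave no call by edgeR, with a median of -0.51, 2 at an unadjusted p below 0.01 and 0 to 3 called by the other fits of the same contrast. Their summed level was 193 to 776 CPM with ponatinib and 644 to 740 CPM with nilotinib. The defining stellate genes Lrat and Reln had log2 fold changes of -0.65 and -0.33 (edgeR adjusted p = 0.0721 and 0.523).

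**Figure D3:**
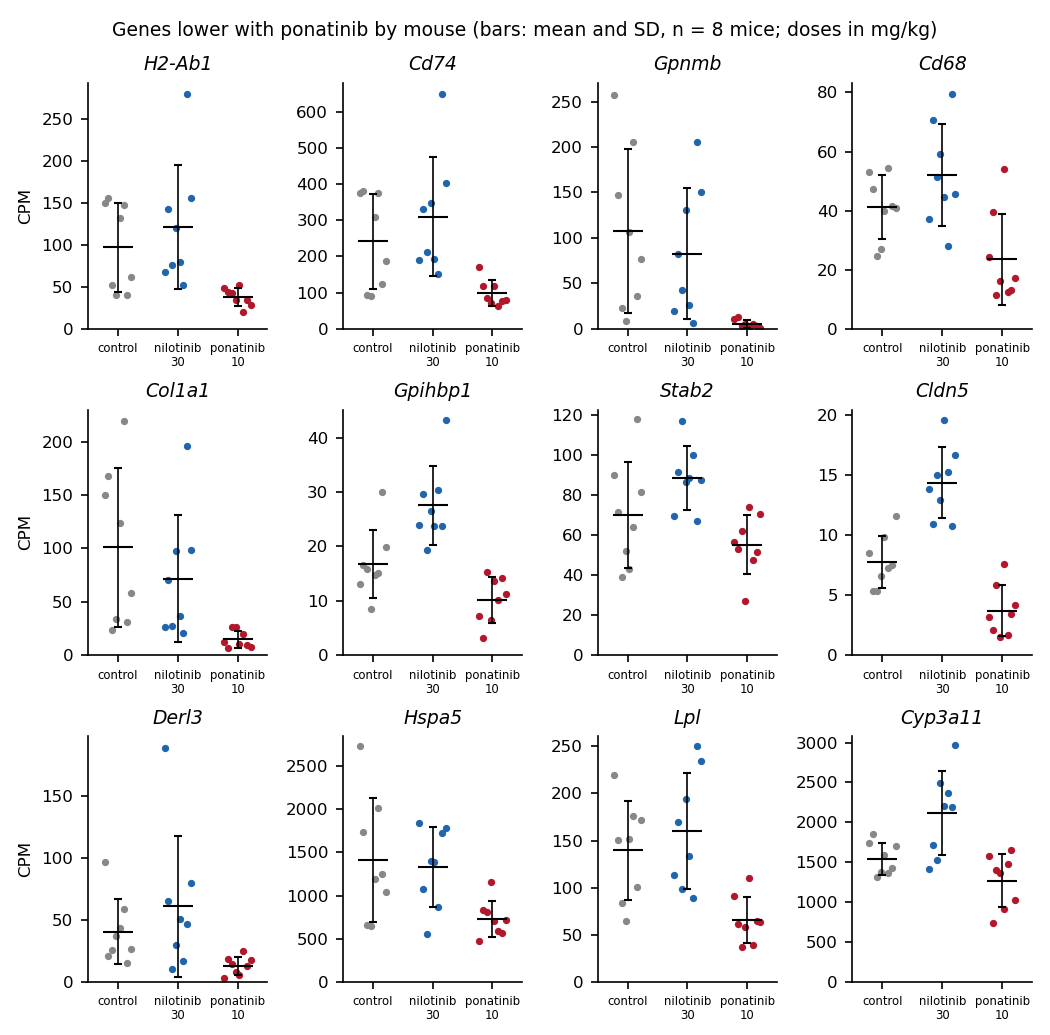
CPM of 12 genes that were called lower with ponatinib 10 mg/kg than with nilotinib 30 mg/kg, in each control, nilotinib and ponatinib mouse (points), with the mean and SD of 8 mice. H2-Ab1, Gpihbp1 and Cldn5 do not overlap between the drugs, whereas Gpnmb, Col1a1 and Derl3 spread widely with nilotinib.

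The endoplasmic reticulum chaperones that passed the test were lower with ponatinib, and their number depended on the fit. Of 22 tested, 3 were called, 10 were lower at an unadjusted p below 0.01 and 21 had a log2 fold change below 0, with a median of -0.38. Creld2, a disulfide isomerase-like chaperone, fell from 79.5 ± 39.0 to 27.0 ± 11.3 CPM (SD, n = 8; log2 fold change -1.55, SE 0.34, edgeR adjusted p = 0.0086). BiP (Hspa5), the main chaperone of this compartment, was at 477, 710 and 1159 CPM (lowest, median, highest) with ponatinib and 558, 1399 and 1842 CPM with nilotinib (log2 fold change -0.86, SE 0.23, edgeR adjusted p = 0.0319). The isomerase Pdia4 had a log2 fold change of -0.66 (edgeR adjusted p = 0.0419). Derl3, which moves misfolded proteins out for degradation and is not in the list, was at 3.08, 13.2 and 25.1 CPM with ponatinib and 10.6, 48.3 and 189 CPM with nilotinib (log2 fold change -2.24, SE 0.41, edgeR adjusted p = 0.00204). The call of Hspa5 held in 7 of the 16 fits that left out 1 mouse, that of Pdia4 in 5 and those of Creld2 and Derl3 in all 16. The count of the list was 1 to 5 in these fits, and 1 without any of nilotinib mice 1, 4, 5, 7 and 8 or ponatinib mice 1, 6, 7 and 8. The other fits called 1 to 7, with 5 by DESeq2 and 7 by limma, and 8 were called without ponatinib mice 2 and 4 together. ATF4 stress targets, another arm of the stress response, gave no call among 21 by edgeR, with 1 at an unadjusted p below 0.01 and 0 to 1 called by the other fits.

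Genes of this compartment can carry the endoplasmic reticulum stress element, CCAAT and CCACG separated by 9 bases. In the RefSeq table, 8 of the 19 tested chaperones it covers have these letters on either strand within 250 bases before the start (42.1%), against 35 of all 27025 genes, tested here or not (0.13%). Both called chaperones with a match are shown, with the letters in capitals, CGTGG and ATTGG where the match lies on the opposite strand.
Hspa5, chr2:34772020-34772048, plus strand: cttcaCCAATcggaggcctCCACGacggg
Creld2, chr15:88819515-88819543, plus strand: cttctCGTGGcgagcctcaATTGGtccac
Pdia4 is in the table without this spaced match. The Hspa5 bases lie inside a longer first exon of that gene in GENCODE vM21. The counts say nothing of whether a factor was bound there.

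Single genes with strong separation lay outside these groups. Plexin B1 (Plxnb1), a receptor for semaphorin 4D, had the smallest p of all genes. It was at 88.6, 106 and 141 CPM (lowest, median, highest) with ponatinib and 45.6, 56.6 and 85.8 CPM with nilotinib, with no overlap (log2 fold change 0.86, SE 0.13, edgeR adjusted p = 0.000192). Ets2, a transcription factor downstream of growth factor signalling, was at 18.7, 23.2 and 34.6 CPM against 36.1, 43.6 and 58.0 CPM (log2 fold change -0.87, SE 0.15, edgeR adjusted p = 0.00204). The endocytic adaptor Dab2 did not overlap either, at 3.70 to 15.9 and 19.8 to 28.1 CPM (log2 fold change -1.16, edgeR adjusted p = 0.00204). Emp1, a membrane protein, and Mcm3, part of the replication helicase, were lower by log2 fold changes of -2.17 and -1.41 (edgeR adjusted p = 0.0134 and 0.0197). Mcm3 was the one called of 24 cell cycle genes, of which 22 had a log2 fold change below 0, with a median of -0.77. At an unadjusted p below 0.01, 5 of the 24 were lower, and the other fits of the same contrast called 1 to 3 lower.

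Among 25 tested kinases bound by the drugs, FGF receptor 3 (Fgfr3) was the one called. It was at 48.8, 102 and 156 CPM (lowest, median, highest) with ponatinib and 43.9, 57.4 and 67.0 CPM with nilotinib, with 7 ponatinib mice above all nilotinib mice (log2 fold change 0.82, SE 0.15, edgeR adjusted p = 0.00204). The median of the list was -0.29, and 3 kinases were lower at an unadjusted p below 0.01.

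Few drug metabolism genes passed the test. Cyp3a11, the main CYP3A enzyme of mouse liver and a PXR target, was at 741, 1381 and 1653 CPM (lowest, median, highest) with ponatinib and 1418, 2199 and 2972 CPM with nilotinib (log2 fold change -0.74, SE 0.14, edgeR adjusted p = 0.00204). It was the called member of 24 CAR and PXR targets, whose median was -0.06. Against control at 1544 ± 202 CPM (SD, n = 8), nilotinib was higher by 0.45 (edgeR adjusted p = 0.0337) and ponatinib stood at -0.28 (edgeR adjusted p = 0.17). Aryl hydrocarbon receptor targets, 8 tested, gave no call by edgeR, with 2 at an unadjusted p below 0.01 and 0 to 1 called by the other fits. Of 20 NRF2 targets, 2 were lower, the glutathione transferase Gstm3 by -1.73 (edgeR adjusted p = 0.0269) and the exporter Abcc4, which is also the called one of 23 bile acid genes, by -1.62 (edgeR adjusted p = 0.042). In all, 17 of the 20 had a log2 fold change below 0, with a median of -0.49. At an unadjusted p below 0.01, 7 were lower and 1 was higher. For ponatinib 3 over nilotinib 10 mg/kg the median was -0.50, and 2 were called, both lower. Gstm3 reached 839 CPM in nilotinib mouse 7 against a group median of 140 CPM, and without nilotinib mouse 7 or 8 or ponatinib mouse 8 no NRF2 target was called.

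The fatty acid oxidation list held 2 lower members of 30, the peroxisomal enzyme Ehhadh with a log2 fold change of -0.76 (edgeR adjusted p = 0.0122) and the thioesterase Acot1 with -1.22 (edgeR adjusted p = 0.0279). Of 17 periportal genes, 3 were higher, with a list median of 0.08, and 1 was called without nilotinib mouse 7. The 3 genes were the glutaminase Gls2 (log2 fold change 0.78, edgeR adjusted p = 0.0132), and the urea cycle enzymes Arg1 (0.49, edgeR adjusted p = 0.0198) and Asl (0.59, edgeR adjusted p = 0.0361). Tyrosine aminotransferase (Tat), the called member of both the glucose production and the hepatocyte lists, had a log2 fold change of 0.73 (edgeR adjusted p = 0.0269). Gls2 was at 404 ± 106 CPM in control mice, 437 ± 94.0 with ponatinib and 255 ± 73.2 with nilotinib (SD, n = 8 each). The clock gene Cry2, the one called of 18, did not overlap between the drugs, at 42.3 to 84.5 and 26.2 to 36.3 CPM (log2 fold change 0.81, edgeR adjusted p = 0.00611). Pericentral genes, 17 tested, and the 19 genes of the growth hormone axis gave no call by edgeR (2 in each list at an unadjusted p below 0.01, and 0 to 2 and 0 to 1 called in one direction by the other fits).

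Both kininogens and 2 of 26 tested complement genes were higher by small amounts. Kng1 and Kng2, precursors of bradykinin and nearly identical in sequence, were the called members of 41 coagulation genes, with log2 fold changes of 0.59 and 0.63 (edgeR adjusted p = 0.0092 and 0.00458). At the study's unadjusted p below 0.01, 8 coagulation genes were higher and 2 were lower with ponatinib. The other fits of the same contrast called 1 to 6 of them higher and 0 to 2 lower. Coagulation factor VII (F7) averaged 180 ± 29.9 CPM in the ponatinib mice and 121 ± 36.9 CPM in the nilotinib mice (SD, n = 8; log2 fold change 0.57, edgeR adjusted p = 0.0613). F5, F9, Pros1, Proc, Plau, Plat and Serpina1a did not pass either (edgeR adjusted p between 0.208 and 0.935). C1s1 and Mbl2, which start the complement cascade, had log2 fold changes of 0.36 and 0.41 (edgeR adjusted p = 0.0117 and 0.0391). The complement count was 0 with only the 16 mice in the fit and up to 6 in the other fits. It was 1 when nilotinib mouse 1, 4, 7 or 8 or ponatinib mouse 6, 7 or 8 was left out, and 4 when nilotinib mouse 3 or ponatinib mouse 4 was. The median of the list, 0.21, became -0.02 without ponatinib mice 2 and 4 together. Of 28 apolipoprotein and lipase genes, Lpl and Gpihbp1 were called, and Apoa1, the main HDL protein, was at 8831 ± 3008 and 7301 ± 2101 CPM (SD, n = 8; edgeR adjusted p = 0.561).

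The calls of Saa1 and Saa2 rested on 1 animal. Of 23 tested acute-phase genes 2 were called higher and none lower, with a median log2 fold change of 0.38. Without ponatinib mouse 2 that median was -0.20. For ponatinib 3 over nilotinib 10 mg/kg, in other mice, the median was 0.49, with 21 of 23 above 0 and 1 called, higher. Serum amyloid A2 (Saa2) was at 13333 CPM in ponatinib mouse 2 and at 5.43 to 62.6 CPM in the other 7 ponatinib mice, against 28.2 to 180 CPM with nilotinib. Saa1 was at 11846 CPM in the same mouse and at 9.91 to 110 CPM in the other 7, against 54.7 to 300 CPM with nilotinib. The log2 fold changes of 4.42 and 3.55 (edgeR adjusted p = 0.0171 and 0.0296) became -1.30 and -1.39 without that mouse. The neutrophil protease gene Prtn3 was at 146 CPM in mouse 2 and 12.1 CPM in mouse 5, and at most 2.47 CPM in the other ponatinib mice and 3.30 CPM in the nilotinib mice (edgeR adjusted p = 0.0184). Its call was lost without mouse 2 (edgeR adjusted p = 0.408), and 5 of the 8 other fits called it. Metallothionein Mt1, which binds zinc, was at 1180 CPM in mouse 2 and at 20.2 to 311 CPM in the others of the group (log2 fold change 1.92, edgeR adjusted p = 0.0377). Without mouse 2 the log2 fold change of Mt1 was 1.18 and its call was lost (edgeR adjusted p = 0.214). The zinc and iron importer Slc39a14 and Hamp2, a gene of the hepcidin family, were the called ones of 19 iron genes, with log2 fold changes of 0.67 and 1.47 (edgeR adjusted p = 0.0222 and 0.0275). The call of Slc39a14 was lost without mouse 2 (edgeR adjusted p = 0.0745).

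Several broad lists gave few or no calls. None of 75 oxidative phosphorylation genes and none of 72 cytosolic ribosomal protein genes was called by edgeR, with 3 and 0 at an unadjusted p below 0.01 and 0 to 10 and 0 to 3 called as higher by the other fits. Their median log2 fold changes were 0.19 and 0.06. Psmd8 was the one called of 31 proteasome genes (-0.44, edgeR adjusted p = 0.0424), and none of 30 interferon-stimulated genes or 7 cholangiocyte markers was called by edgeR (3 and 0 at an unadjusted p below 0.01, 0 to 2 and 0 called by the other fits). Cholangiocyte markers summed to 108 to 157 CPM with ponatinib and 87.3 to 274 CPM with nilotinib, and hepatocyte markers to 67841 to 140445 and 68952 to 120600 CPM.

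**Figure D4:**
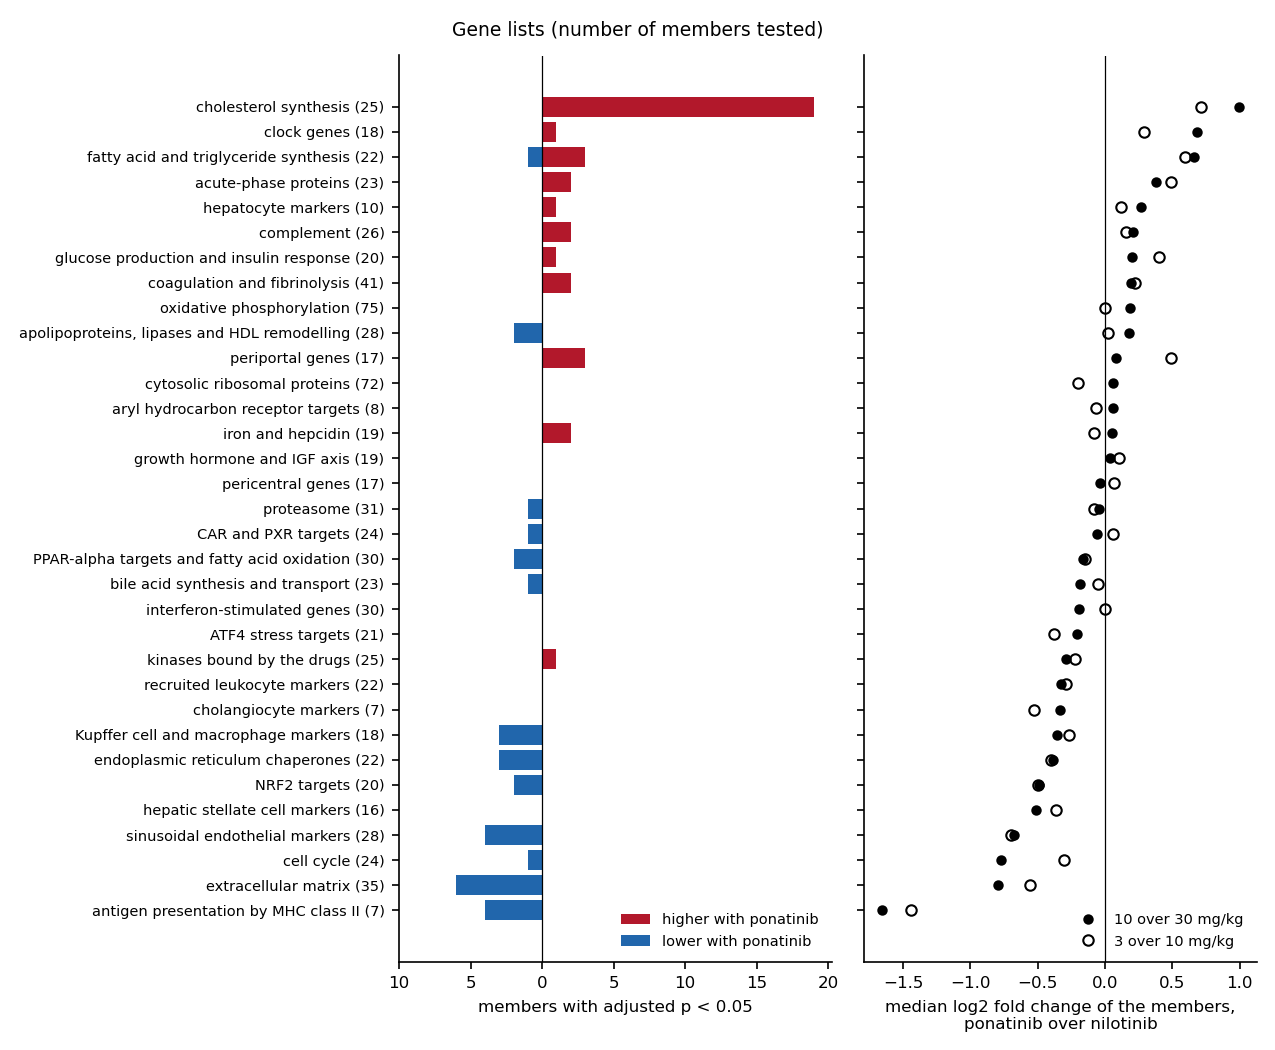
Members of each of the 33 gene lists called higher (red) or lower (blue) with ponatinib 10 mg/kg (left), and the median log2 fold change of the tested members (right) for ponatinib 10 over nilotinib 30 mg/kg (filled) and ponatinib 3 over nilotinib 10 mg/kg (open). Numbers in brackets are tested members. The cholesterol list has 19 calls and the highest median, 1.00, and the MHC class II list the lowest, -1.66.

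The low doses of both drugs, given to other mice, allowed the direction to be read again. In ponatinib 3 mg/kg mice set against nilotinib 10 mg/kg mice, 175 genes (1.24%) were called, 112 higher and 63 lower with ponatinib, and 766 (5.44%) had an unadjusted p below 0.01. The libraries of this pair differed in the share of uniquely aligned reads outside annotated genes. It was 7.78% to 9.75% with ponatinib 3 mg/kg and 9.14% to 11.0% with nilotinib 10 mg/kg. With that share as a covariate 105 genes were called, and the cause of the lower count was not tested. Of the 218 genes called at the high doses, 210 (96.3%) had the same sign at the low doses, against 61.5% of all tested genes, and 108 had the same sign with an unadjusted p below 0.01. Called in both pairs with the same sign were 53 genes, which is 24.3% of the high-dose calls and 30.3% of the low-dose calls. The cholesterol list had a median of 0.72 at the low doses with 13 of 25 members called, all higher, and the MHC class II list a median of -1.44 with 4 of 7 called, all lower. Among the other lists, 6 fatty acid and triglyceride genes were called higher at the low doses, and 5 endothelial markers and 3 chaperones were called lower. The matrix list had a median of -0.55 at the low doses, but of its 4 called members 2 were higher with ponatinib (Col18a1 and Fn1) and 2 lower (Col5a2 and Thbs2), named after their values were seen. Sqle stood at 2.14 and Gpnmb at -3.64 in the low-dose pair (unadjusted p = 6.21e-06 and 4.59e-06 by edgeR).

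The difference between the dose pairs itself was called for 0 of 14090 genes (0%) by edgeR, where 187 had an unadjusted p below 0.01 and 767 one below 0.05, and DESeq2 called 1 and limma 88. The gap was wide for Fgfr3, which had a log2 fold change of 0.07 at the low doses (unadjusted p = 0.624 by edgeR) against 0.82 at the high ones. The test of that gap gave an unadjusted p of 0.000967 and an adjusted p of 0.70 by edgeR. For Plxnb1 the low-dose value was 0.33 and the gap had an unadjusted p of 0.00515 by edgeR. The predicted locus Gm8394, a processed pseudogene whose reads may belong to a related gene, was the one gene with opposite sign at an unadjusted p below 0.01 in the low-dose pair.

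**Figure D5:**
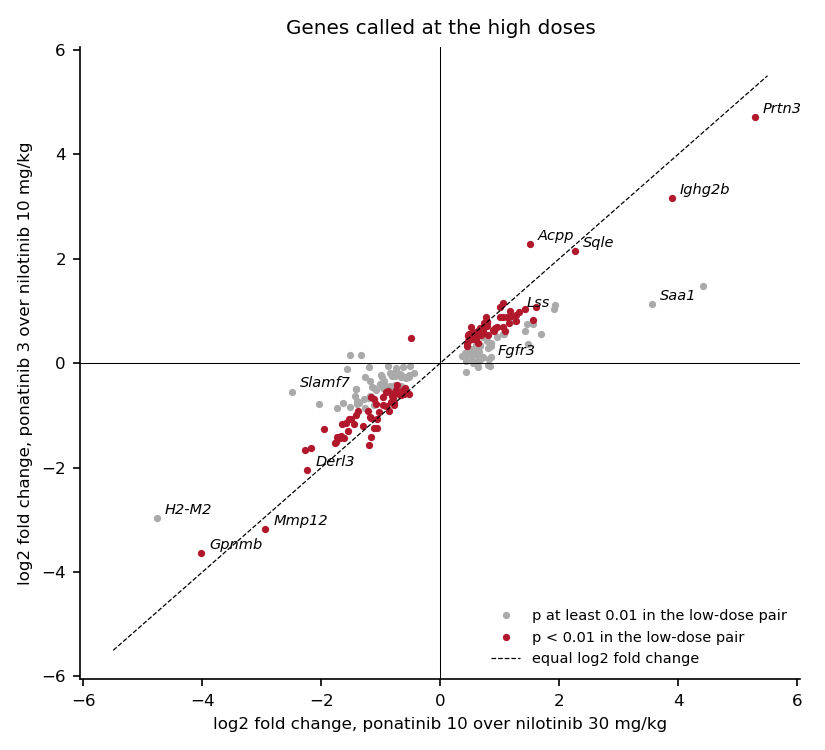
Log2 fold change of ponatinib 10 over nilotinib 30 mg/kg (x axis) against that of ponatinib 3 over nilotinib 10 mg/kg (y axis) for the 218 genes called at the high doses, in red where the low-dose pair had an unadjusted p below 0.01. Of the points, 210 lie in the quadrants of equal sign, and the median of the higher genes is 0.75 at the high doses and 0.53 at the low doses.

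Read beside control, the called genes did not lie on one side. The 105 genes higher with ponatinib had a median log2 difference from control of 0.58 with ponatinib and -0.21 with nilotinib, and 62 of them were called higher than control with ponatinib and 16 called lower with nilotinib. The 113 genes lower with ponatinib had medians of -0.86 and 0.22, with 78 called lower than control with ponatinib and 4 called higher with nilotinib. Over all genes 12.6% were called with ponatinib and 5.46% with nilotinib against the same control mice. These values share the control mice and the members were selected by the difference between the drugs, so no test is attached. The share of uniquely aligned reads outside annotated genes was 7.55% to 8.67% in control mice. It was at least 8.89% in the 16 mice compared, and its part in the differences from control was not tested.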

How the data were processed

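Per the labels, the authors extracted liver RNA, prepared poly(A) libraries and deposited the number of reads per Ensembl gene, raw counts without normalization. The submitters' processing notes name TopHat2 2.0.14, Bowtie2 2.1.0, SAMtools 0.1.18, HTSeq 0.6.1p1 and build GRCm38. The deposited counts list 45513 gene identifiers, and summary lines for reads outside genes, ambiguous or multiply aligned reads (41.6% to 49.8% of all counted lines in the 16 mice) were left out of tests. Whether strand was used is not given in the sources used here, so antisense or overlapping genes cannot be told apart.

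The 8 control, 8 imatinib, 16 nilotinib and 16 ponatinib mice were fitted together by edgeR 4.0.16 (quasi-likelihood, TMM, filterByExpr), with DESeq2 1.42.0 and limma 3.58.1 as alternatives. Adjusted p-values are Benjamini-Hochberg over all tested genes. In simulated counts for this comparison, 64.9% of 97 genes with a true log2 change of 1 and 87.6% of 97 with a change of 2 were recovered, over 13835 genes. In the same counts 13 genes without a change were called. The simulated counts held no mouse made to stand apart from its group. Named genes are the 10 most higher and 10 most lower called coding genes with at least 1 CPM, the 10 of smallest p, up to 4 called members of each list (or the 2 of smallest p), genes of the study's clotting and lipid text (no identifier matched Klkb1) and defining cell markers. Some genes that this rule names are not reported here. The members and lists were chosen with earlier results of these data known. Each sample is a separate mouse, so the tests set the difference against the spread between animals. That spread was estimated over all 48 mice of the fit and not over the 16 compared alone. Replicate numbers are names only and pair no mice. Genes with near copies (serum amyloid, kininogen, hepcidin, class II, CYP3A and glutathione transferase genes) are uncertain.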

Additional observations from a re-analysis of the deposited data

Results flagged for a closer look

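A single mouse lay far from the other 7 for the following named genes and library measures. The gap was above 0.526 of the group's range in 18 of 216 groups of values tested. For genes the gap and the range were taken on log2 CPM, while the levels given below are CPM. Normally distributed values would give about 1 in 20, and these values need not be so distributed. Ponatinib mouse 2 was the highest for Saa2 (13333 CPM), Saa1 (11846 CPM), Slc39a14 (481 CPM) and Mup20 (28.2 CPM). The same mouse was the lowest for Alb (43898 CPM, the others 85261 CPM or more), Pklr (186 CPM), Hamp2 (53.3 CPM), Ehhadh (189 CPM), Reln (10.8 CPM) and Clec4g (4.35 CPM). Ponatinib mouse 4 was the lowest for Stab2 (27.0 CPM) and the highest for Hnf4a (738 CPM). Ponatinib mouse 5 was the lowest for C1s1 (526.01 CPM) and ponatinib mouse 1 for Epcam (0 CPM). Ponatinib mouse 3 had the most genes with a read (18282, in the deepest of the 16 libraries). Nilotinib mouse 7 was the highest for Mup20 (222 CPM), nilotinib mouse 3 the lowest for Ehhadh (489.6 CPM) and nilotinib mouse 8 the lowest for Snhg11 (0 CPM).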

How the results depend on the processing

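For ponatinib 10 against nilotinib 30 mg/kg, edgeR called 218 genes, DESeq2 402, limma voom with sample quality weights 730 and edgeR with only the 16 mice in the fit 126. At an adjusted p below 0.01 there were 57 calls and at an unadjusted p below 0.01 there were 772. Leaving out 1 mouse gave 98 to 296 calls. Without ponatinib mice 2 and 4 together, an alternative chosen after seeing the data, there were 345 calls. Members of any list were called 66 times, and 100 times by DESeq2, 151 by limma, 43 with only the 16 mice, 27 at an adjusted p below 0.01, 164 at an unadjusted p below 0.01 and 40 to 80 with 1 mouse left out. The low-dose pair gave 175 calls, 316 by DESeq2, 460 by limma, 105 with the share of reads outside genes as a covariate, 12 at an adjusted p below 0.01 and 766 at an unadjusted p below 0.01. The difference between the dose pairs gave 0 calls, 1 by DESeq2, 88 by limma and 187 at an unadjusted p below 0.01. The cause of these shifts was not tested. The log2 fold changes of Saa2 and Saa1 reversed to -1.23 and -1.30 by DESeq2, to -0.45 and -0.65 by limma, to -1.30 and -1.39 without ponatinib mouse 2 (the other fits that left out a mouse reached 4.71 and 3.85) and to -1.11 and -1.21 without ponatinib mice 2 and 4. No other named gene reversed a call. Upper-quartile factors, all 56 mice, no filter on low counts, a mean of at least 1 CPM and the share of reads outside genes as a covariate left the high-dose count between 202 and 269. The 64 genes called in all 8 other fits and all 16 fits without 1 mouse held under every one of these 24 settings. No paired analysis was possible because the replicate numbers are only names. With 7027550 to 11997763 reads, genes under 1 CPM rest on few reads and are limited most by depth.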
